A study of Mus musculus with 15 samples.

Results

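Expression of 9 genes of the Cyp4 family of fatty acid hydroxylases (Cyp4a10, Cyp4a14, Cyp4a12a, Cyp4a12b, Cyp4a31, Cyp4a32, Cyp4b1, Cyp4v3 and Cyp4f14) was measured by RNA-Seq in mouse kidney. The genes were chosen by symbol, and all 9 were found among the 47069 genes of the deposited table. The mice were C57BL/6 males, 2 months of age. Each of 12 libraries was made from 1 microdissected proximal tubule labelled PTS2 (sets m1, m2 and m3, 4 libraries a set), and 3 further libraries were made from whole kidney. The labels name no genotype or treatment and state neither what m1 to m3 stand for nor which libraries came from the same mouse, so p-values measure only the spread between these libraries, and the set cannot be told apart from any batch that coincides with it. Values are TPM, transcript abundances that are corrected for gene length, so levels can be compared between genes. Sequencing depth cannot be recovered from TPM and is unknown for each library.

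Enzymes of the CYP4 family are membrane-bound monooxygenases that add a hydroxyl group at or next to the methyl (omega) end of a fatty acid. The product can be oxidised by alcohol and aldehyde dehydrogenases to a dicarboxylic acid, which is shortened in peroxisomes. With arachidonic acid as the substrate, the same reaction gives a hydroxylated eicosanoid that acts on renal vessels and on tubular salt transport. In rodents, Cyp4a10 and Cyp4a14 are classic targets of the fatty acid receptor PPARA and rise in fasting. Cyp4a12a, with its close copy Cyp4a12b, is an arachidonic acid hydroxylase of the male mouse kidney that depends on androgen. Cyp4b1 acts on shorter fatty acids and on foreign compounds. Cyp4v3 is the mouse counterpart of human CYP4V2, and Cyp4f14 belongs to the subfamily that inactivates leukotrienes.

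In the GENCODE M21 annotation (GRCm38), 7 of the 9 genes lie side by side on chromosome 4. On the plus strand are Cyp4a12a (chr4:115299046-115332815), Cyp4a12b (chr4:115411624-115439034), Cyp4a10 (chr4:115518264-115533649), Cyp4a31 (chr4:115563649-115579015) and Cyp4a32 (chr4:115600969-115621602). On the minus strand are Cyp4a14 (chr4:115486200-115496142) and Cyp4b1 (chr4:115624725-115647723). Cyp4v3 (chr8:45304944-45333216) and Cyp4f14 (chr17:32905070-32917342), both on the minus strand, stand apart from this cluster.

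Each of the 9 coding sequences held the P450 haem-binding signature once. The stretches below show how far the members have diverged around the cysteine that binds the haem iron. They hold 57 coding bases, from 9 codons before to 9 codons after the codon of that cysteine. Capitals mark bases that differ from Cyp4a10. The stretch spans the junction of exons 11 and 12 (exons 10 and 11 in Cyp4v3, exons 12 and 13 in Cyp4f14), so the coordinates enclose an intron. On GRCm38 they run from chr4:115529496-115532564 (plus strand) in Cyp4a10, chr4:115487278-115489811 (minus) in Cyp4a14, chr4:115328980-115331867 (plus) in Cyp4a12a, chr4:115625195-115625668 (minus) in Cyp4b1, chr8:45307086-45308413 (minus) in Cyp4v3 and chr17:32905645-32906071 (minus) in Cyp4f14.
Cyp4a10: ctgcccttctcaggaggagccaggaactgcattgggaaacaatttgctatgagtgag
Cyp4a14: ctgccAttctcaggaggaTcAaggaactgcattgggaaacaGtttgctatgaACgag
Cyp4a12a: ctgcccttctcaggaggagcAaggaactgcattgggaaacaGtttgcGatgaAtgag
Cyp4b1: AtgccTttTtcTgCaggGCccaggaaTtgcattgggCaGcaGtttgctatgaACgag
Cyp4v3: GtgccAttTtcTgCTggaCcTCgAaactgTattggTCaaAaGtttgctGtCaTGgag
Cyp4f14: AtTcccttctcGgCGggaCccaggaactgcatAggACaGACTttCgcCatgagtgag
Cyp4a31 and Cyp4a32 were identical to Cyp4a10 here, and Cyp4a12b to Cyp4a12a. Cyp4a12a differed from Cyp4a10 at 4 of the 57 bases, Cyp4a14 at 6, Cyp4b1 at 13, Cyp4f14 at 15 and Cyp4v3 at 19.

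Over the whole coding sequence, Cyp4a10 shared 96.6% of bases with Cyp4a31 and 97.2% with Cyp4a32, and Cyp4a12a shared 98.5% with Cyp4a12b. Of the 1478 windows of 50 bases in the Cyp4a10 coding sequence, 289 (19.6%) occurred letter for letter in Cyp4a31. For Cyp4a12a and Cyp4a12b the share was 54.8% (808 of 1475). The split of reads within these 2 groups of copies, and so the level of each copy, is therefore uncertain. Cyp4a10 shared no such window with Cyp4a14 (75.1% of bases) or with Cyp4a12a (80.0%). The following 60 bases of exon 1 are those in which Cyp4a10 and Cyp4a31 differed most. They lie on the plus strand at chr4:115518427-115518486 in Cyp4a10, chr4:115563822-115563881 in Cyp4a31 and chr4:115601080-115601139 in Cyp4a32, and capitals again mark differences from Cyp4a10.
Cyp4a10: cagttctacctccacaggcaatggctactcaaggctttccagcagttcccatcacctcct
Cyp4a31: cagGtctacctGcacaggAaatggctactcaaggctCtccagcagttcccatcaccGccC
Cyp4a32: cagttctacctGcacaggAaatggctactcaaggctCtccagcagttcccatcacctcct
Cyp4a31 carried 6 differences and Cyp4a32 carried 3.

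Between 10983 and 11511 genes reached 1 TPM in the PTS2 libraries, and between 13236 and 13328 in whole kidney. All 3 markers of the early proximal segment S1 were lower in PTS2 than in whole kidney. Slc5a2 (at most 1.38 TPM) and Slc5a12 (at most 0.23) were near 0 in PTS2, while Slc2a2 was present at 35.1 to 78.4 TPM, against 112 to 123 in whole kidney. The sum of 2 transporters of the middle segment S2 (Slc22a6, Slc22a8) was 368 to 1149 TPM in PTS2 and 719 to 781 in whole kidney. The sum of 3 transporters of the late segment S3 (Slc7a13, Slc5a1, Slc22a7) was higher in every PTS2 library (2054 to 3772 TPM) than in whole kidney (988 to 1254). The members of these sums differed: Slc7a13 and Slc22a7 were higher in every PTS2 library, Slc5a1 and Slc22a6 overlapped whole kidney, and Slc22a8 was lower. These markers thus did not separate S2 from S3 for the label. Of 5 markers of all proximal segments, Slc27a2 was higher in every PTS2 library, and Lrp2, Cubn and Slc34a1 overlapped whole kidney. The remaining marker, Slc4a4, was lower in PTS2 (58.7 to 159 TPM, against 214 to 236). Of 11 other cell types of the kidney, every marker of 10 was lower in all PTS2 libraries than in whole kidney. The 2 lymphocyte genes, near 0 in PTS2, overlapped whole kidney. One library stood apart: thick ascending limb markers summed to 1441 TPM in m3 replicate 3, to 4.75 to 55.8 in the other PTS2 libraries and to 2425 to 2723 in whole kidney. Without it the number of Cyp4 genes called was the same in each of the 8 comparisons.

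The 9 genes ranged from one of the most abundant transcripts of the tubule to near 0. Mean TPM over the 12 PTS2 libraries was 8476 ± 2478 (SD) for Cyp4b1, 1029 ± 527 for Cyp4a10, 1023 ± 317 for Cyp4a31, 91.0 ± 93.7 for Cyp4a14, 48.6 ± 32.9 for Cyp4a12a, 10.2 ± 5.39 for Cyp4a12b, 2.38 ± 0.658 for Cyp4f14, 0.659 ± 0.559 for Cyp4a32 and 0.166 ± 0.127 for Cyp4v3. The pooled means of Cyp4a10 and Cyp4a31 did not differ beyond their spread. Within libraries, the ratio of Cyp4a10 to Cyp4a31 was 1.17 to 1.29 in m2, 0.744 to 0.948 in m1 and 0.715 to 0.841 in m3. The order of means in whole kidney (n = 3) differed from that of the pooled PTS2 means. Cyp4a31 (397 ± 61.8 TPM) lay above Cyp4a10 (299.5 ± 84.2) and Cyp4a12a (171 ± 48.6) above Cyp4a14 (21.3 ± 13.1). Cyp4v3 (1.82 ± 0.0306) lay above Cyp4f14 (1.39 ± 0.377). In whole kidney the libraries of Cyp4a12a and Cyp4a14 did not overlap, and those of the other pairs did. For Cyp4a31 with Cyp4a10 and Cyp4a12a with Cyp4a14, the m1 and m3 means had the kidney order. The m2 means did not: Cyp4a10 averaged 1692 TPM, Cyp4a31 1394, Cyp4a14 212 and Cyp4a12a 31.8. Together the 9 genes held 0.901% to 1.59% of all TPM in PTS2 and 0.633% to 0.833% in whole kidney. Cyp4b1 alone made up 58.7% to 90.9% of that sum in PTS2 and 84.9% to 90.5% in whole kidney, and its mean share was lowest in m2.

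**Figure D1:**
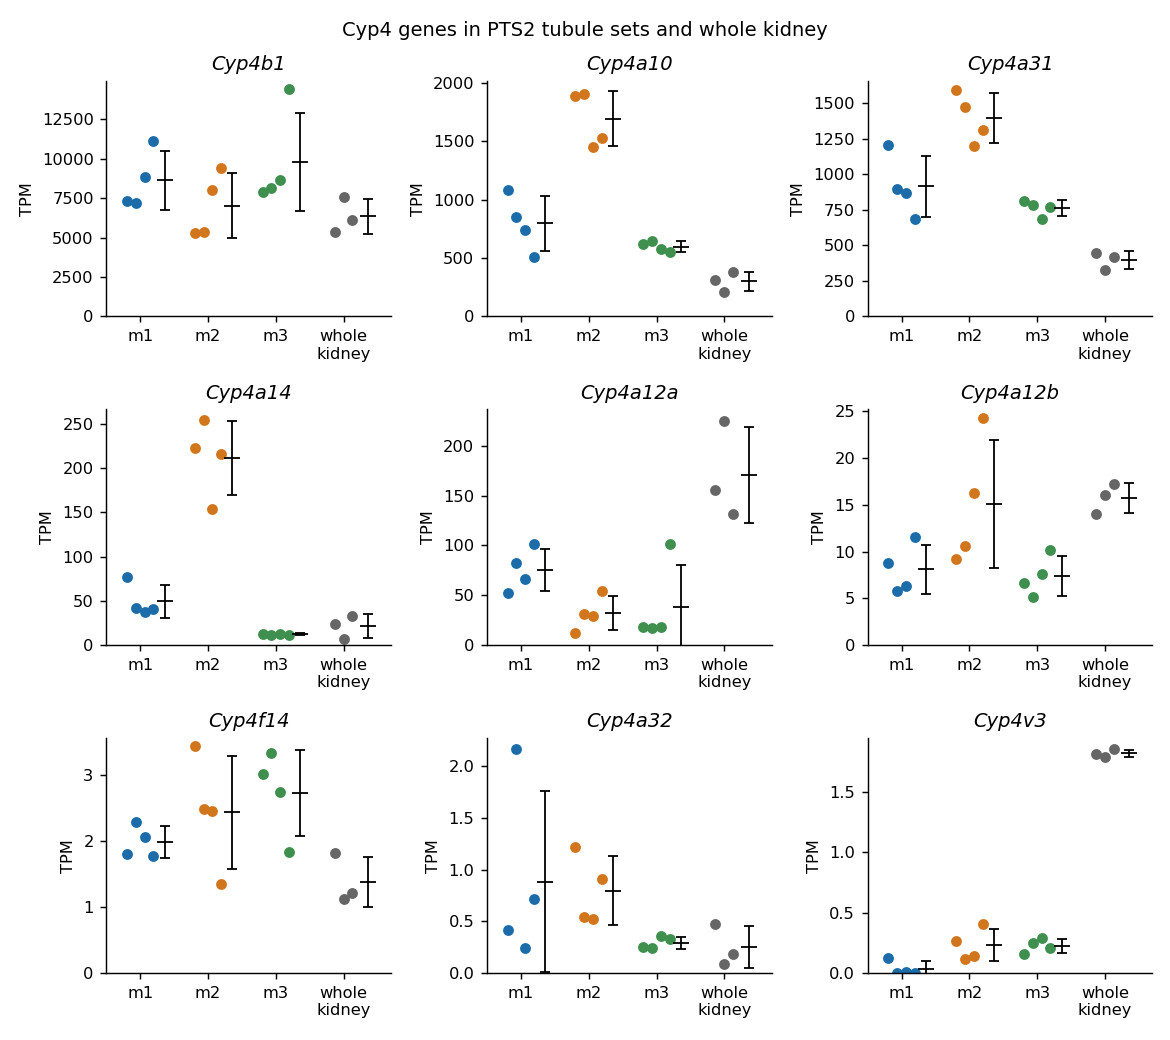
TPM of each of the 9 Cyp4 genes (vertical axes, linear, each with its own range) in the m1, m2 and m3 PTS2 libraries (4 points each, left to right replicate 1 to 4) and in whole kidney (3 points). Bars show the mean and SD of each group, and the lower bar of Cyp4a12a in m3 (mean 38.4, SD 41.7) is cut at 0. Cyp4a10, Cyp4a31 and Cyp4a14 stand highest in m2, whereas Cyp4a12a and Cyp4v3 are highest in whole kidney.

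Of the 9 genes, 7 averaged 1 TPM or more across the 15 libraries and were tested between PTS2 and whole kidney (limma on log2(TPM + 1), threshold of 0.05 on the adjusted p). Cyp4a10, Cyp4a31 and Cyp4f14 were higher in PTS2 and Cyp4a12a was lower, so that 4 of the 7 were called, beside 51.2% of all 12039 genes tested. Of all genes, 9.68% were called higher and 41.5% lower, and the median log2 difference was -0.27. Median-of-ratios rescaling moved that median to 0.00 and quantile normalization to 0.16, and the share of calls that were higher from 18.9% to 50.7% and 64.7%. The directions of the 4 called Cyp4 genes were the same under both. In whole tissue, fewer cells of a type and less RNA per cell cannot be told apart, and fold changes on the log2(TPM + 1) scale understate the change of low genes.

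Among the 3 PTS2 sets, 3 of the 7 Cyp4 genes tested differed (Cyp4a14, Cyp4a10 and Cyp4a31; limma F test), beside 3.02% of 11300 genes. Cyp4a14 and Cyp4a10 rose from m1 to m2 (2 of 7, beside 0.54% of all genes, 0.301% higher). Cyp4a14 was lower in m3 than in m1 (1 of 7, beside 3.17% of all genes, 0.938% lower). Of all calls in that comparison, 70.4% were higher as deposited, 54.6% after median-of-ratios rescaling and 52.8% after quantile normalization. All 3 were lower in m3 than in m2 (3 of 7, beside 1.97% of all genes, 0.805% lower).

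Cyp4a14, which in the mouse responds strongly to PPARA, varied most between the sets. It was measured at 76.6, 42.1, 37.1 and 40.9 TPM in the 4 m1 libraries. The m2 libraries held 223, 254, 153 and 217 TPM. The m3 libraries held 12.9, 11.6, 12.8 and 11.1 TPM. No library of one set overlapped another set, and within m3 the values were nearly equal. Of all genes tested, 2.81% lay without overlap above m1 in m2, 2.67% below m1 in m3 and 2.99% below m2 in m3. Set means were 49.2 ± 18.4 (SD, n = 4) in m1, 212 ± 42.2 in m2 and 12.1 ± 0.891 in m3, a ratio of 17.5 between m2 and m3 and of 4.30 between m2 and m1. The log2 difference was 2.12 ± 0.20 (SE) for m2 over m1 (adjusted p = 0.00032), -1.88 ± 0.20 for m3 against m1 (adjusted p = 0.000305) and -4.00 ± 0.20 for m3 against m2 (adjusted p = 2.95e-07).

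Whole kidney held 23.9, 7.11 and 33.0 TPM of Cyp4a14, and these values lay on both sides of the m3 libraries. The tubules as one group were not called against whole kidney (1.42 ± 0.89, adjusted p = 0.191). Without whole kidney replicate 2, the lowest of the 3, the difference was 0.81 (adjusted p = 0.561). Taken set by set, Cyp4a14 was higher than whole kidney in m1 (1.34 ± 0.37, adjusted p = 0.00718) and in m2 (3.46 ± 0.37, adjusted p = 1.8e-06). In m3 the difference was -0.54 ± 0.37 (adjusted p = 0.244). Without whole kidney replicate 2 it was -1.15 (adjusted p = 0.00246), and that in m1 was 0.73 (adjusted p = 0.0325).

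Cyp4a10, the other classic PPARA target of the group, was also highest in m2. The m1 libraries held 1082, 849.6, 743 and 512 TPM. The m2 libraries held 1885, 1905, 1454 and 1526 TPM. The m3 libraries held 620.3, 649, 574 and 549.9 TPM. All m2 libraries lay above all others, while m1 and m3 overlapped. Set means were 797 ± 236 (SD, n = 4), 1692 ± 236 and 598 ± 44.5 TPM for m1, m2 and m3. The log2 difference was 1.13 ± 0.18 (SE) for m2 over m1 (adjusted p = 0.00921) and -1.49 ± 0.18 for m3 against m2 (adjusted p = 0.00053). For m3 against m1 it was -0.36 ± 0.18 (adjusted p = 0.295). With no filter on low genes the m2 and m1 difference had an adjusted p of 0.0669.

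Cyp4a31, the near-copy of Cyp4a10, followed the same order with a smaller range. It was measured at 1207, 896, 865 and 689 TPM in m1. The m2 libraries held 1591, 1475, 1199.7 and 1309 TPM. The m3 libraries held 814, 784, 683 and 769 TPM. The lowest m2 library lay just under the highest m1 library, and m3 lay below all of m2. The F test gave an adjusted p of 0.0093 (0.0538 with no filter on low genes), and m3 was below m2 by a log2 difference of -0.86 ± 0.14 (SE, adjusted p = 0.00623). For m2 over m1 the difference was 0.63 ± 0.14 (adjusted p = 0.085). That adjusted p was 0.00684 without m1 replicate 1, 0.0454 after median-of-ratios rescaling and 0.037 after quantile normalization.

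In whole kidney, Cyp4a10 was measured at 312, 209.85 and 377 TPM and Cyp4a31 at 445, 328 and 419 TPM. Every PTS2 library lay above every whole kidney library for both genes. The ratio of the PTS2 mean to the kidney mean was 3.44 for Cyp4a10 (log2 difference 1.65 ± 0.37 SE, adjusted p = 0.00149) and 2.58 for Cyp4a31 (1.31 ± 0.23, adjusted p = 0.000155). Such separation upward was found for 5.76% of all genes tested. Each set on its own was also higher than whole kidney. For Cyp4a10 the log2 differences were 1.40, 2.53 and 1.03 in m1, m2 and m3, and for Cyp4a31 they were 1.18, 1.81 and 0.95. The largest of the 6 adjusted p-values was 0.00121.

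The balance within the group differed with the set. The ratio of Cyp4a10 to Cyp4a31 was 1.18, 1.29, 1.21 and 1.17 in the m2 libraries. It was below 1 in the other 8 PTS2 libraries (0.715 to 0.948) and in whole kidney (0.640 to 0.900). Cyp4a14 amounted to 10.6% to 14.2% of the Cyp4a10 level in m2, 4.96% to 7.99% in m1 and 1.79% to 2.22% in m3, against 3.39% to 8.74% in whole kidney. These shares did not overlap between the sets. With Cyp4a10, Cyp4a31 and Cyp4a32 summed, m2 exceeded m1 by 0.88 on the log2 scale (adjusted p = 0.0218).

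**Figure D2:**
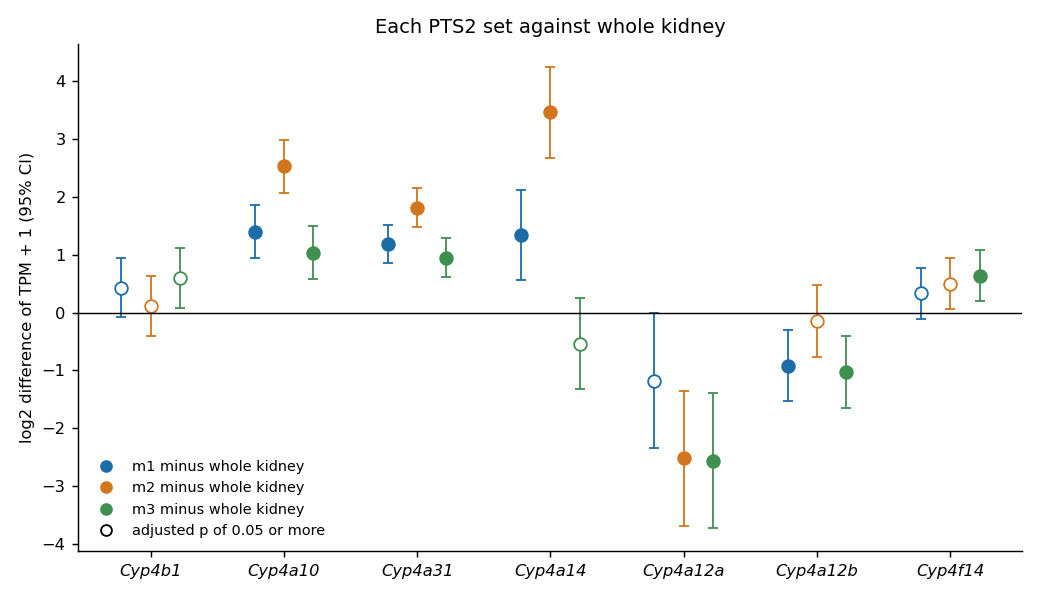
Log2 difference of TPM + 1 between each PTS2 set and whole kidney (vertical axis) for the 7 Cyp4 genes tested, with 95% confidence intervals. Filled points had an adjusted p under 0.05; the 3 comparisons share the whole kidney libraries. Cyp4a10 and Cyp4a31 lie above 0 in each set and most in m2 (2.53 and 1.81), Cyp4a14 runs from 3.46 in m2 to -0.54 in m3, and Cyp4a12a lies below 0 in each set.

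Cyp4a12a, the androgen-dependent arachidonic acid hydroxylase, was the only tested member called lower in PTS2 than in whole kidney. Whole kidney held 156, 225 and 132 TPM. The m1 libraries held 52.0, 82.2, 66.3 and 101 TPM. The m2 libraries held 12.4, 31.1, 29.5 and 54.3 TPM. The m3 libraries held 17.9, 17.2, 17.6 and 101 TPM. Every PTS2 library lay below every whole kidney library, as for 32.0% of all genes tested. The PTS2 mean of 48.6 ± 32.9 TPM (SD, n = 12) was 28.4% of the kidney mean of 171 ± 48.6 (n = 3), with a log2 difference of -2.09 ± 0.57 (SE, adjusted p = 0.00574).

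Set by set, Cyp4a12a was lower than whole kidney in m2 (-2.52, adjusted p = 0.00153) and in m3 (-2.56, adjusted p = 0.00141). In m1 the difference was -1.18 (adjusted p = 0.0839). Among the sets no difference was called (adjusted p = 0.259), and m3 against m1 was -1.38 ± 0.53 (adjusted p = 0.19). One library carried much of that spread. Without m3 replicate 4, the adjusted p was 0.0236 among the sets, 0.0146 for m3 against m1 (-1.998) and 0.0136 for m1 against whole kidney.

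Cyp4a12b, its copy, was measured at 8.82, 5.80, 6.35 and 11.5 TPM in m1. The m2 libraries held 9.23, 10.6, 16.3 and 24.2 TPM. The m3 libraries held 6.58, 5.08, 7.64 and 10.2 TPM, and whole kidney held 14.1, 16.0 and 17.2 TPM. The m2 libraries overlapped whole kidney, and those of m1 and m3 lay below it. The share of all genes without overlap is not reported here for single sets. By the adjusted p, a different measure, 42.9% of all genes were called lower in m1 and 35.1% in m3. For Cyp4a12b, PTS2 as one group gave -0.70 ± 0.32 (adjusted p = 0.0746), and -0.81 (adjusted p = 0.0132) without m2 replicate 4. Cyp4a12b was lower than whole kidney in m1 (-0.92, adjusted p = 0.0162) and m3 (-1.03, adjusted p = 0.00918). The call in m1 was lost without whole kidney replicate 3 (adjusted p = 0.0561), with both copies summed (0.0576), and with median-of-ratios rescaling (0.0965) or quantile normalization (0.311), and the last also ended the call in m3 (0.0923). With both copies summed, PTS2 was lower by -1.86 (adjusted p = 0.00434).

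Cyp4b1, which acts on shorter fatty acids and foreign compounds, was among the most abundant transcripts of the tubule, at rank 7 by mean TPM in PTS2 and rank 9 in whole kidney. The m1 libraries held 7314, 7176, 8852 and 11149.5 TPM. The m2 libraries held 5306, 5329, 8002 and 9435 TPM. The m3 libraries held 7904, 8149.8, 8651 and 14445 TPM, and whole kidney held 5377, 7545 and 6122 TPM. The sets overlapped each other, and m1 and m2 overlapped whole kidney. The log2 difference of PTS2 over whole kidney was 0.38 ± 0.23 (SE, adjusted p = 0.175), and 0.67 (adjusted p = 0.026) after median-of-ratios rescaling. The F test among the sets gave an adjusted p of 0.476.

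For m3 over whole kidney the difference in Cyp4b1 was 0.59 ± 0.24 (adjusted p = 0.0577). It crossed the threshold without m1 replicate 4 (adjusted p = 0.04995), m2 replicate 4 (0.0444) or m3 replicate 1 (0.0493), and with median-of-ratios rescaling (0.84, adjusted p = 0.0137). Without m3 replicate 4, the library with the most Cyp4b1, it was 0.39 (adjusted p = 0.157).

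Cyp4f14, of the leukotriene-inactivating subfamily, was low throughout. It ranged from 1.36 to 3.44 TPM (median 2.37) in PTS2 and was 1.82, 1.13 and 1.21 TPM in whole kidney, and the groups overlapped. The log2 difference was 0.49 ± 0.18 (SE, adjusted p = 0.0347), and 1.35 (adjusted p = 1.16e-05) under quantile normalization. The call was lost without whole kidney replicate 2 (adjusted p = 0.15) or replicate 3 (0.126), and with no filter on low genes (0.0574). Set means were 1.98 ± 0.242, 2.44 ± 0.850 and 2.73 ± 0.650 TPM (SD, n = 4) in m1, m2 and m3, and the F test gave an adjusted p of 0.641. Against whole kidney, m3 was called (0.64, adjusted p = 0.0197), but not without m3 replicate 2 (0.0563), whole kidney replicate 2 (0.0789) or replicate 3 (0.0697). For m2 the difference was 0.50 (adjusted p = 0.0577), which passed without m2 replicate 4 (0.0112), m3 replicate 4 (0.0447) or whole kidney replicate 1 (0.0454), and with median-of-ratios rescaling (0.67, adjusted p = 0.0185) or quantile normalization (1.36, adjusted p = 8.89e-05). Under quantile normalization m1 was called too (1.24, adjusted p = 0.000215; 0.33, adjusted p = 0.194 without it).

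The other two members stayed under the mean of 1 TPM. Cyp4a32, the third Cyp4a10-like copy, was measured at 0.42, 2.16, 0.24 and 0.72 TPM in m1, 1.22, 0.54, 0.52 and 0.91 in m2, 0.25, 0.24, 0.36 and 0.33 in m3 and 0.48, 0.09 and 0.19 in whole kidney. Its coding sequence differed from Cyp4a10 by no more than that of Cyp4a31 did, yet its PTS2 mean of 0.659 TPM stood beside 1023 TPM for Cyp4a31. Of its windows of 50 bases, 34.6% occurred in Cyp4a10 and 25.8% in Cyp4a31. Its annotated transcript has 1530 bases, 1527 of them coding, and that of Cyp4a31 has 2509. Whether the assignment of reads lowered the Cyp4a32 value was not tested. Cyp4v3 was measured at 0.13, 0.00, 0.01 and 0.00 TPM in m1, 0.27, 0.12, 0.14 and 0.41 in m2 and 0.16, 0.25, 0.29 and 0.21 in m3. Whole kidney held 1.81, 1.79 and 1.85 TPM of Cyp4v3, above every PTS2 library. Of the genes that were tested, 32.0% lay below whole kidney without overlap. With no filter on low genes, Cyp4v3 was lower in PTS2 by -1.28 on the log2 scale (adjusted p = 3.82e-08), and Cyp4a32 gave 0.36 (adjusted p = 0.338).

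Each set was also set against whole kidney on its own. The m1 set was higher for Cyp4a10, Cyp4a31 and Cyp4a14 and lower for Cyp4a12b (4 of 7, beside 51.5% of all genes, 8.63% higher and 42.9% lower). The m2 set was higher for the same 3 and lower for Cyp4a12a (4 of 7, beside 47.4%, 9.54% higher and 37.8% lower). The m3 set was higher for Cyp4a10, Cyp4a31 and Cyp4f14 and lower for Cyp4a12a and Cyp4a12b (5 of 7, beside 46.0%, 10.9% higher and 35.1% lower). These comparisons share the whole kidney libraries.

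The libraries numbered 4 stood out for 4 members. Cyp4b1, Cyp4a12a and Cyp4a12b were each highest in replicate 4 of all 3 sets, and Cyp4f14 was lowest there in all 3. Cyp4a31 was highest in replicate 1 of all 3 sets. The share of all genes with such a pattern was not counted, so it cannot be read as particular to Cyp4 genes. Same-numbered libraries were weakly alike: 9 of 12 PTS2 libraries correlated best with their own number in other sets. Sums of segment markers moved with the Cyp4 values of replicate 4. In the replicate 4 libraries of m1, m2 and m3, the S2 marker sum was the highest of its set (1149, 892 and 1024 TPM). The S3 marker sum was the lowest (2054, 2640 and 2741 TPM), but Slc7a13 alone was lowest there in 2 sets and Slc5a1 in 1. The S1 marker Slc2a2 was also highest in replicate 4 of all 3 sets. The part of segment position in the Cyp4 values was not tested. The labels give the numbers no meaning.

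**Figure D3:**
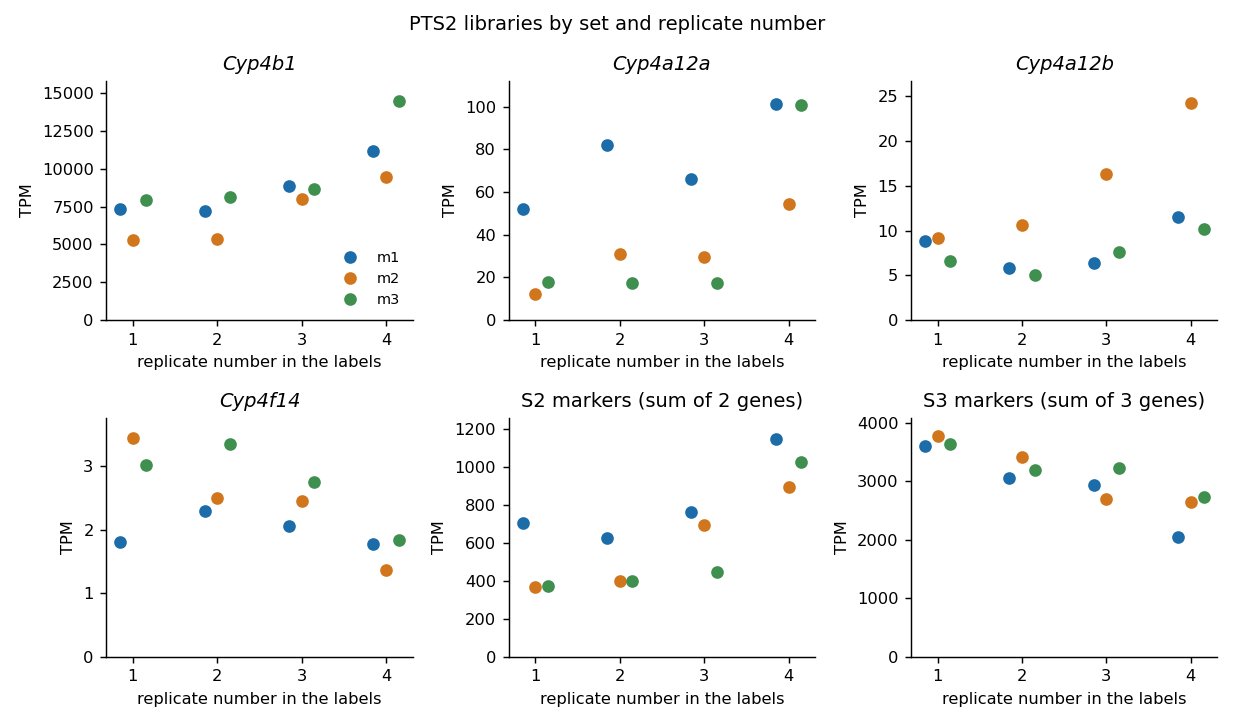
TPM in the 12 PTS2 libraries (vertical axes, linear) against the replicate number in the labels, for 4 Cyp4 genes, the S2 markers Slc22a6 and Slc22a8 (summed) and the S3 markers Slc7a13, Slc5a1 and Slc22a7 (summed), coloured by set. In replicate 4 of each set Cyp4b1, Cyp4a12a, Cyp4a12b and the S2 markers are highest and Cyp4f14 and the S3 markers lowest.

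Other targets of PPARA were examined as a list of 25 genes of fatty acid oxidation and fasting, of which 22 were tested. The list was chosen with earlier results of these data known, so its counts are given as a description only. In m3 against m2, 10 of the 22 fell and none rose, beside 0.805% of all genes called lower. The median log2 difference was -0.41 over the list and 0.04 over all genes. Ucp2, a mitochondrial carrier, averaged 345 ± 37.2 TPM in m2 and 61.3 ± 13.8 in m3 (-2.49 ± 0.24, adjusted p = 9.83e-05). Angptl4, an inhibitor of lipoprotein lipase, averaged 182 ± 7.38 and 54.4 ± 4.03 TPM (-1.73 ± 0.10, adjusted p = 1.18e-06). Vnn1, the pantetheinase vanin, averaged 228 ± 12.5 and 128 ± 10.2 TPM (-0.84 ± 0.09, adjusted p = 0.000203).

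The genes that fell also included Pdk4, Slc25a20, Cpt2, Acot1, Pex11a and Acot3. The count was 6 without any one of m1 replicate 3, m2 replicate 2, m2 replicate 4, m3 replicate 1 and m3 replicate 3. None of the 22 genes was called higher in m3 than in m2 under the settings tried.

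Between m2 and m1, 1 gene of the list passed, beside 0.54% of all genes, and 8 genes of the list passed without m1 replicate 1. Leaving that library out moved calls over all genes from 61 to 135. That library also had the highest Cyp4a14, Cyp4a10 and Cyp4a31 of its set. In m3 against m1, Angptl4 (-1.26), Ucp2 (-1.81) and Vnn1 (-0.46) fell, beside 0.938% of all genes called lower. Among the sets 6 of the 22 were called by the F test, beside 3.02% of all genes. The count was 12 without m1 replicate 1 or with median-of-ratios rescaling and 10 with quantile normalization. In these settings, in that order, calls over all genes went from 341 to 563, 406 and 420. Against whole kidney, PTS2 was higher for 12 and lower for 2 of the 22 (median 0.37, all genes -0.27). Of all genes, 9.68% were called higher and 41.5% lower. Under both rescalings no gene of the list was called lower. Over all genes, 2751 of 11919 were called lower after median-of-ratios rescaling and 2273 of 12039 under quantile normalization. Taken set by set, 8.63%, 9.54% and 10.9% of all genes were called higher in m1, m2 and m3 and 42.9%, 37.8% and 35.1% lower. Of the list, 12 were higher and 2 lower in m1, 16 higher and 0 lower in m2, and 10 higher and 6 lower in m3. The list medians were 0.44, 0.62 and 0.24. Under both rescalings none of the list was called lower in m1 or m2. In m3, 11 were higher, with 3 lower after median-of-ratios rescaling and 4 under quantile normalization. All-gene shares also changed with the scale. After median-of-ratios rescaling, 2675, 2565 and 2567 of 11919 genes were called lower in m1, m2 and m3. Under quantile normalization they were 2149, 2176 and 2262 of 12039. In m3, 2658 and 3849 of all genes were called higher under the 2 rescalings.

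**Figure D4:**
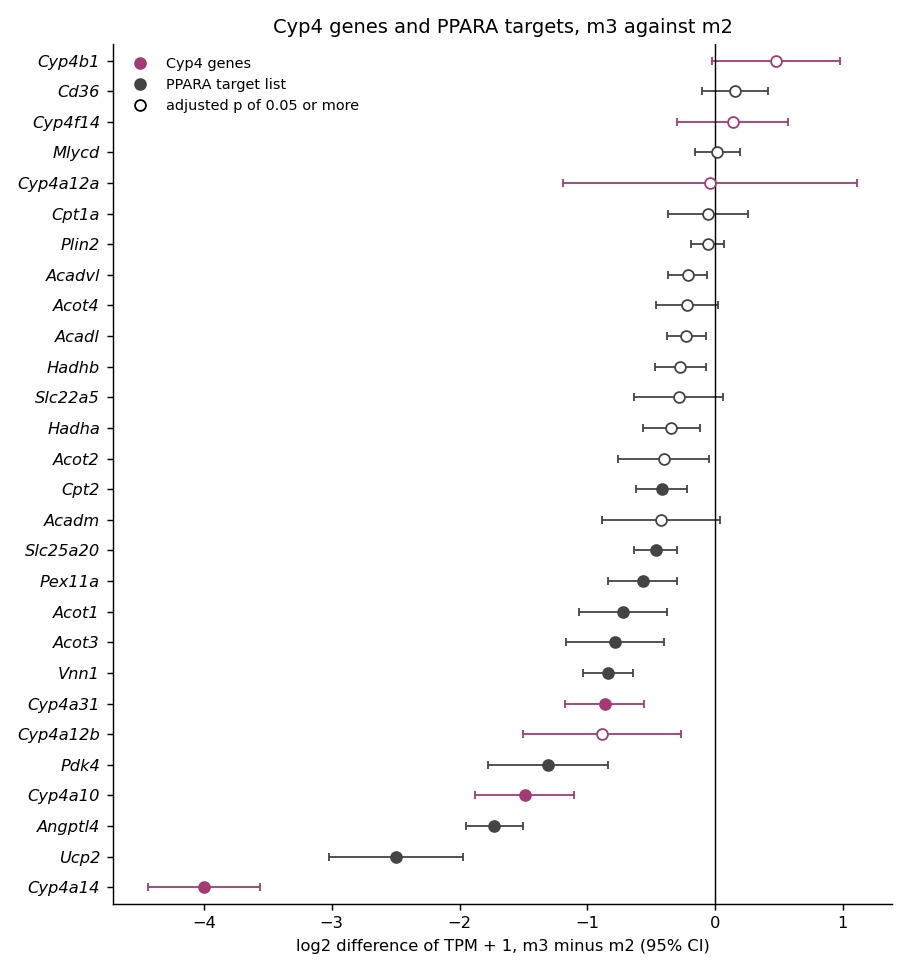
Log2 difference of TPM + 1 between m3 and m2 (horizontal axis, m3 minus m2, with 95% confidence intervals) for the 7 Cyp4 genes tested and 21 of the 22 tested genes of the PPARA target list. Filled points had an adjusted p under 0.05. Cyp4a14 (-4.00) and Ucp2 (-2.49) lie farthest to the left, and each filled point lies below 0.

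No receptor or cofactor was called among the sets. Ppara, the receptor, averaged 39.1 ± 10.2 TPM (SD, n = 4) in m1, 37.4 ± 5.03 in m2 and 34.5 ± 8.86 in m3. Of 9 nuclear receptors and partners, 8 were tested, and limma called 0 among the sets (1 at an unadjusted p under 0.05), beside 3.02% of all genes. Against whole kidney 6 of the 8 were lower in PTS2, beside 41.5% of all genes. The coactivator Ppargc1a averaged 10.4 ± 2.76 TPM in PTS2 and 50.5 ± 1.63 in whole kidney (-2.22 ± 0.21, adjusted p = 1.46e-07). Ppara averaged 37.0 ± 7.79 and 59.8 ± 11.1 TPM (-0.69 ± 0.18, adjusted p = 0.00478). The 6 included Rxra, the dimer partner of PPARA (-0.63). After median-of-ratios rescaling 4 were called, each lower, beside 2751 of all 11919 genes. After quantile normalization 5 were called, each lower, beside 2273 of all 12039 genes.

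The genes most like each member that differed among the sets were found by Pearson's r of log2(TPM + 1) over the 12 PTS2 libraries. These points share their sets, and r is given as a description. For Cyp4a10 they were Cyp4a31 (r = 0.981), Tmem140 (0.971) and Ech1, a peroxisomal and mitochondrial fatty acid isomerase (0.951). For Cyp4a14 they were Vnn1 (0.974), Arrdc3 (0.968) and Pnrc1 (0.966). For Cyp4a31 they were Cyp4a10, Tmem140 (0.95) and Pdk4, the kinase that turns off pyruvate dehydrogenase (0.941). Cyp4a14 and Cyp4a10 gave r = 0.931 with each other, whereas Cyp4b1 gave -0.707 with Cyp4a10.

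The electron donors and the enzymes that act after omega-hydroxylation formed a list of 19 genes, 17 of them tested. Against whole kidney, 13 were higher in PTS2 and 3 lower (Acsl1 and Acaa1a among them), beside 9.68% and 41.5% of all genes. The lowest adjusted p-values were those of Scp2, the peroxisomal thiolase and sterol carrier (0.50 ± 0.05, adjusted p = 3.72e-07), Ehhadh, the peroxisomal bifunctional enzyme that shortens dicarboxylic acids (1.07 ± 0.14, adjusted p = 8.46e-06), Aldh9a1 (0.66) and Cyb5r3 (0.47). Por, the reductase that passes electrons to P450 enzymes, averaged 468 ± 91.2 TPM in PTS2 and 290 ± 39.5 in whole kidney (0.67 ± 0.16, adjusted p = 0.00181). Under quantile normalization 1 of the 16 changed sign, and 1 of 15 called genes was lower after median-of-ratios rescaling.

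Among the sets, 4 of the 17 omega oxidation genes were called (Acaa1b, Adh5, Acsl1 and Adh1), beside 3.02% of all genes. In m3 against m2, the alcohol dehydrogenases Adh1 (0.62 ± 0.11, adjusted p = 0.0134) and Adh5 (0.34 ± 0.05, adjusted p = 0.00406) were higher. The thiolase Acaa1b (-0.71 ± 0.10, adjusted p = 0.00181) and the acyl-CoA synthetase Acsl1 (-1.03 ± 0.22, adjusted p = 0.0359) were lower. The count was 2 without m2 replicate 2. Between m2 and m1 limma called 0 of the 17 (1 at an unadjusted p under 0.05), beside 0.54% of all genes, and 1 without m1 replicate 1.

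Of 12 further Cyp4 genes, 4 were tested. Cyp4f13 was higher in PTS2, at 47.3 ± 4.74 TPM against 29.3 ± 2.21 in whole kidney (0.67 ± 0.09, adjusted p = 1.5e-05). Cyp4f16 was lower, at 2.15 ± 0.750 against 5.02 ± 0.437 TPM (-0.97 ± 0.20, adjusted p = 0.0009). Among all genes, 9.68% were called higher and 41.5% lower. Quantile normalization called 3 of the 4, each higher, beside 4164 of all 12039 genes called higher in that setting. Among the sets limma called 0 of the 4, with 0 at an unadjusted p under 0.05, beside 3.02% of all genes called.

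Other enzymes of arachidonic acid metabolism formed a list of 14 genes, 9 of them tested against whole kidney. The prostaglandin synthases Ptges (-4.53 ± 0.19, adjusted p = 3.99e-12) and Ptgs1 (-3.24), the phospholipase Pla2g4a (-2.71) and the epoxide hydrolase Ephx1 (-3.30) were lower in PTS2. The epoxide hydrolase Ephx2 (0.78) and the epoxygenase Cyp2j5 (0.43) were higher. Beside these 4 lower and 2 higher of 9, 41.5% of all genes were called lower and 9.68% higher. Among the sets limma called 0 of the 6 tested (1 at an unadjusted p under 0.05), beside 3.02% of all genes.

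Growth hormone and androgen, which act on Cyp4a12 expression, were represented by 9 genes, all tested. Against whole kidney the growth hormone receptor Ghr (0.99 ± 0.14, adjusted p = 1.25e-05) and the androgen-regulated Kap (0.90 ± 0.13, adjusted p = 2.49e-05) were higher, and Stat5b (-0.36) and Stat5a (-0.56) were lower, though neither was called after median-of-ratios rescaling and both turned positive, uncalled, under quantile normalization. Without whole kidney replicate 1 or replicate 3 the count was 2. Among all genes, 9.68% were called higher and 41.5% lower against whole kidney. Among the sets 3 of the 9 were called, beside 3.02% of all genes. Cish, which is induced by STAT5, averaged 4.65 ± 1.08 TPM in m1, 12.6 ± 1.15 in m2 and 93.5 ± 4.49 in m3 (F test, adjusted p = 4.22e-09). Socs2, another STAT5-induced inhibitor, averaged 17.1 ± 5.69, 5.26 ± 1.26 and 30.3 ± 2.85 TPM (adjusted p = 0.000118). Odc1, which androgen induces in the mouse kidney, was higher in m3 than in m2 (1.26 ± 0.26, adjusted p = 0.0244). The m3 set thus had the highest mean of Cish and the lowest of Cyp4a14, while the lowest Cish was in m1 and the highest Cyp4a14 in m2.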

How the data were processed

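The authors deposited a single table, which holds TPM for each gene in each library. Per the labels' protocols, cDNA was made from polyA RNA with a low-input kit and sequenced on an Illumina instrument. The submitters' processing notes name STAR 2.5.1b, RSEM 1.2.31 and GRCm38.p5, with no role or order. Each column summed to 1000000 apart from rounding. The authors' own columns of means and standard errors were not used. Groups and replicate numbers come from the description labels.

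All fits used limma 3.58.1 (R 4.3.3, mean-variance trend) on log2(TPM + 1), in genes averaging 1 TPM or more, with Benjamini-Hochberg adjustment over all genes. PTS2 against whole kidney used the set as a correlated block (0.0669). The 3 sets were fitted alone, and each set against whole kidney in a fit of 4 groups. The fits were tested on simulated data. Python 3.11.15, pandas 2.3.3 and matplotlib 3.10.9 were used for the rest. Coordinates and coding sequences come from GENCODE M21 by gene ID.

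The 9 genes and the gene lists were chosen with earlier results of these data known. Genes named are these 9, up to 4 examples per list and comparison by adjusted p, the genes that a count of calls concerns, and the 3 nearest in Pearson's r. Por, Ppara, Adh1, Ppargc1a and Odc1 values beyond that rule were chosen after seeing them. Some listed genes are counted but not reported here by name or plotted. Alternatives were another pseudocount, filter or scaling, the replicate number as a block, paralogs summed and each library left out.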

Additional observations from a re-analysis of the deposited data

Results flagged for a closer look

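In a group of 4 libraries, 1 value lay far from the other 3 in 4 of 27 cases tested (each of the 9 genes in each set), where chance alone gives about 1 in 20, or 1.35. Cyp4a14 was 76.57 TPM in m1 replicate 1, with 42.12 as the next highest. Cyp4a12a was 101.04 TPM in m3 replicate 4, with 17.92 next. Cyp4b1 was 14444.8 TPM in the same library, with 8651.2 next. Cyp4v3 was 0.13 TPM in m1 replicate 1, with 0.01 next, a low level in each.

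The difference from whole kidney depended on the set for 3 genes, by the test between the sets themselves, in which the shared kidney libraries cancel. For Cyp4a14 the log2 differences from whole kidney differed by 2.122 between m2 and m1, by -1.878 between m3 and m1 and by -4.00 between m3 and m2. For Cyp4a10 they differed by 1.126 between m2 and m1 and by -1.491 between m3 and m2. For Cyp4a31 they differed by -0.8647 between m3 and m2.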

How the results depend on the processing

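Of 1210 values of single Cyp4 genes under alternatives, 1138 kept their direction and side of the threshold, 43 newly passed, 13 no longer passed and 16 reversed, and none of the 16 was a call. The number of Cyp4 genes called between m2 and m1 was 2, and 1 with no filter and 4 with close paralogs summed, where the summed value counts for each copy. Between m3 and m1 it was 1, from 1 to 2 when single libraries were left out (2 without m3 replicate 4), and 2 without the libraries numbered 4, an alternative chosen after seeing the data. The replicate numbers did not meet the rule for pairing (r above 0.1 in each pair): same-numbered libraries of different sets gave a mean r of 0.143 (0.0254 to 0.273 over 12 pairs, 7 above 0.1) against -0.0481 over 36 other pairs, and 9 of 12 libraries correlated best with their own number. With the replicate block, the F test called 6 Cyp4 genes among the sets, against 3 without it. Cyp4b1 (adjusted p = 0.0154), Cyp4a12b (0.0159) and Cyp4a12a (0.025) were gained. The block gave 5 calls between m2 and m1, 2 between m3 and m1 and 5 between m3 and m2. In the same order of comparisons, calls over all genes went from 341 to 888, 61 to 307, 358 to 838 and 223 to 416.

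Reversed values were -0.92 for Cyp4a12b in m2 against m1 with paralogs summed, and in m2 against whole kidney 0.13 for Cyp4a12b with median-of-ratios rescaling, 0.32 with quantile normalization, and for Cyp4b1 -0.0511 with the replicate block and -0.0448 without the libraries numbered 4. With single libraries left out, the log2 difference crossed 0 for Cyp4a12b in m3 against m1 (-0.267 to 0.0504) and in m2 against whole kidney (-0.395 to 0.0392). It also did for Cyp4b1 in m3 against m1 (-0.0439 to 0.29) and in m2 against whole kidney (-0.0448 to 0.245), for Cyp4a12a in m3 against m2 (-0.652 to 0.269) and for Cyp4f14 in m3 against m2 (-0.0303 to 0.274). The cause was not tested.

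Calls over all genes for PTS2 against whole kidney were 6161, but 9399 with no filter and 3113 at a mean of 10 TPM. With no filter they were 196 among the sets, 178 for m3 against m1 and 111 for m3 against m2. For m2 against m1 they were 105 with median-of-ratios rescaling and 107 with quantile normalization. At a mean of 10 TPM, calls against whole kidney fell from 6205 to 3180 for m1, from 5705 to 2863 for m2 and from 5538 to 2908 for m3. Among the listed genes, PPARA target calls among the sets were 6, but 12 with median-of-ratios rescaling, the replicate block or without m1 replicate 1, and in m2 against m1 they were 1, but 5 with the block and 8 without m1 replicate 1. PPARA calls in m3 against m2 were 10, and 6 with no filter, while omega oxidation calls among the sets were 4, and 2 with no filter or median-of-ratios rescaling. Eicosanoid calls against whole kidney were 6, and 2 at a mean of 10 TPM. TPM carry no depth, so counting error cannot be given, and the levels of Cyp4a32, Cyp4v3 and Cyp4f14 rest on the lowest values.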
